A study of Danio rerio with 18 samples.

Results

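The 15 rRNA nucleotides described here are called partially methylated by their score, among 98 ribose methylation sites listed for zebrafish cytoplasmic rRNA. A site was chosen by its RiboMeth-seq score: it belongs to the set if the mean over the libraries of a stage was below 0.75 in at least 1 of 5 stages. The score runs from 0, no protection, to 1, full protection. The name goes by this score from both ends of the reads. From 5' read ends alone, 8 of the 15 had means of at least 0.75 at all 4 stages so scored. Of these 8, 2 were below 0.75 with both ends in adult tail only, for which no 5' score was computed. The other 6 were among 13 sites below 0.75 with both ends in the 4 stages. The set holds 6 sites of 18S rRNA, 7 of 28S rRNA and 2 of 5.8S rRNA, and the other 83 listed sites had a mean of at least 0.75 at every stage.

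The data are RiboMeth-seq libraries of zebrafish whole-cell RNA, from unfertilized egg (3 libraries), 32-cell embryo (3), 12-somite embryo (3), protruding-mouth larva (3) and adult tail (2). The labels give the tissue or stage and no genotype, strain, age in days or treatment, and they do not say how many eggs, embryos or fish stand behind a library. Egg, 32-cell and 12-somite reads had been mapped to the early (maternal) rRNA, protruding-mouth and adult tail reads to the late (somatic) rRNA, so that the reference changes with stage between 12-somite and protruding-mouth. Replicates were biological, per the series' design text, which calls the adult tissue tail or trunk. Only the adult sample is a single body part, so that tissue and age change together there and cannot be told apart. The 2 adult tail libraries are called A and B.

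Ribose methylation of rRNA is a methyl group on the 2'-oxygen of the sugar. It is put on by fibrillarin in box C/D small nucleolar ribonucleoproteins, in which the small nucleolar RNA (snoRNA) pairs with the rRNA and so picks the nucleotide. Most sites are modified in nearly every ribosome, while a minority are modified in some ribosomes and not in others, and such sites are often discussed as a source of ribosome heterogeneity. In zebrafish the egg is stocked with ribosomes that carry a maternal type of rRNA, and these are replaced during development by ribosomes with the somatic type. RiboMeth-seq reads the modification from its resistance to alkali: the bond next to a methylated sugar is not broken, and few read ends fall there. The score is 1 minus the read ends at the site over the weighted mean of the read ends at the 6 positions on each side.

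Sites are named as the files name them, by human numbering, and positions count from 1 in the early and late rRNA of the files. The windows below reach up to 10 nt to each side of the sites the results turn on, with the methylated nucleotide in capitals. They are the early rRNA unless marked late. They are shown because several sites stand close to each other or to a difference between the rRNA types: Cm346 and Um354 are 8 nt apart, Um3904 and Cm3916 12 nt, Cm3916 and Gm3923 7 nt, and the 2 sites of 5.8S rRNA 6 nt.
18S-Cm346, early: acgguucauuCgaaugucugc
18S-Cm346, late: acgauucauuCgaaugucugc
18S-Um354: uucgaaugucUgcccuaucaa
18S-Gm436: auuccggagaGggagccugag
18S-Cm462: gcuaccacauCcaaggaaggc
18S-Cm1272: cucacccggcCcggacacgga
28S-Um3904: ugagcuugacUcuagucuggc
28S-Cm3916, early: uagucuggccCugugaagaga
28S-Cm3916, late: uagucuggcaCugugaagaga
28S-Gm3923, early: gcccugugaaGagacaugagg
28S-Um4272: aucuugauuuUcaguaugagu
28S-Am4560, early: ugcaauaguaAucccgcucag
28S-Am4560, late: ugcaauaguaAuccugcucag
5.8S-Um8: caacucuUagcgguggau
5.8S-Um14: cucuuagcggUggaucacucg

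Early and late rRNA differ inside 4 of the 15 windows, written here as early base, early position, late base. The difference is G385A at 7 nt before 18S-Cm346, C3196A directly before 28S-Cm3916 and thus 8 nt before 28S-Gm3923, and C3864U at 4 nt after 28S-Am4560. The other 11 windows are the same in both rRNA types. Among the other 83 listed sites 21 have such a difference. The methylated nucleotide itself is the same in both types at all 98 sites.

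The 14 libraries held from 1494730 read ends (adult tail A) to 15358081 (egg 1). Over the 12 positions flanking one of the 15 sites the mean was at least 61 read ends, at 5.8S-Um14 in adult tail A. Barcodes were shared between libraries of different stages: 5 of the 7 barcodes were used more than once, and the headers of the overview state that some stage means had been corrected for a barcode effect. Sharing was only between egg and 32-cell, or among 12-somite, protruding-mouth and adult tail. Egg and 32-cell had no barcode in common with the later stages, so stage and barcode cannot be told apart in comparisons between these groups. The scores below are uncorrected. The stage means chose the 15 sites, so their differences between stages are given as values with the spread over libraries and were not tested. A score is an average over all ribosomes of a sample, so partial methylation in every cell and a mixture of cells or of rRNA types with and without it cannot be told apart. The plot of scores by library shows every value.

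**Figure D1:**
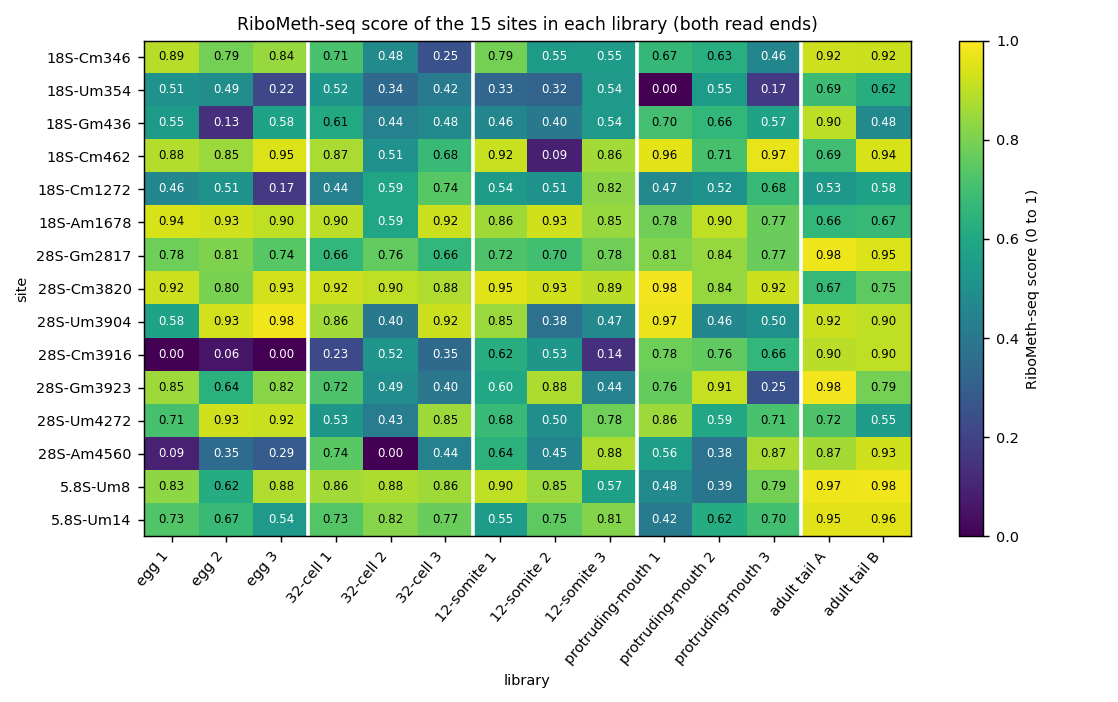
RiboMeth-seq score (colour and number, 0 to 1) of the 15 sites (rows) in the 14 libraries (columns, white lines between stages), from 5' and 3' read ends together. 28S-Cm3916 is darkest in egg and brightest in adult tail, and 18S-Um354, 18S-Gm436 and 18S-Cm1272 stay dark to mid-toned in most libraries.

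Of the 15 sites 6 were below 0.75 in egg and 6 in adult tail. The stages between them had more, 11 at 32-cell, 12 at 12-somite and 11 in protruding-mouth larvae. With 5' ends alone they did not have more than egg: 6 in egg, 4 at 32-cell, 5 at 12-somite and 6 in protruding-mouth larvae. With both ends the median over the 15 sites was highest in adult tail with 0.885 and lower in egg with 0.776. It was 0.603 at 32-cell, 0.639 at 12-somite and 0.644 in protruding-mouth larvae. The median over the other 83 sites lay between 0.935 and 0.951 at every stage. Of the 15 sites 3 were below at 1 stage, 2 at 2 stages, 4 at 3 stages, 3 at 4 stages and 3 at all 5. The groups below were formed after the values were seen.

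The 3 sites with means below 0.75 at every stage are all in 18S rRNA. 18S-Um354, whose methylation is guided in human by SNORD90, is at position 400 of early and 364 of late rRNA. It scored 0.508, 0.495 and 0.216 in egg, 0.524, 0.342 and 0.417 at 32-cell and 0.331, 0.319 and 0.538 at 12-somite. At protruding-mouth it scored 0, 0.546 and 0.170, and in adult tail 0.687 and 0.622. The stage mean was lowest at protruding-mouth, 0.239 ± 0.279 (SD, n = 3), and highest in adult tail, 0.655 ± 0.0462 (n = 2). The protruding-mouth mean rests on its libraries unequally: it was 0.358 without library 1 and 0.0849 without library 2. Both adult tail libraries lay above all 12 others, while the ranges of the other 4 stages overlapped.

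18S-Gm436 (positions 482 and 446), guided in human by SNORD100, scored 0.546, 0.135 and 0.581 in egg and 0.608, 0.436 and 0.479 at 32-cell. It scored 0.458, 0.405 and 0.541 at 12-somite, 0.701, 0.662 and 0.574 at protruding-mouth, and 0.899 and 0.476 in adult tail. The protruding-mouth libraries, with a mean of 0.646 ± 0.0650 (n = 3), lay above the 12-somite libraries, with 0.468 ± 0.0685 (n = 3). Egg library 2 lay far below the other two of its stage, and the 2 adult tail libraries lay far apart. Without adult tail B the adult tail value was 0.899, so that the site was below 0.75 at every stage only with that library. In the authors' deposited table both of these stage means are higher, 0.563 in egg and 0.929 in adult tail, against uncorrected means of 0.421 and 0.687.

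18S-Cm1272 (positions 1339 and 1294), guided in human by SNORD66, scored 0.462, 0.514 and 0.168 in egg, 0.437, 0.587 and 0.739 at 32-cell and 0.544, 0.511 and 0.824 at 12-somite. It scored 0.469, 0.515 and 0.676 at protruding-mouth and 0.533 and 0.577 in adult tail. The stage means ran from 0.381 ± 0.187 (n = 3) in egg to 0.626 ± 0.172 (n = 3) at 12-somite. Both adult tail libraries lay above the 3 egg libraries and inside the range of each other stage.

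The 2 lowest egg means among the 15 sites were those of 2 sites of 28S rRNA, which were high in adult tail. Both lie within 4 nt of a difference between the rRNA types. 5.8S-Um14 also went from below 0.75 in egg (0.646) to a high mean in adult tail (0.955), with no such difference in its window. Differences within 10 nt were found at 26.7% of the 15 sites and 25.3% of the other 83, and their part was not tested. 28S-Cm3916 (positions 3197 and 3085) scored 0, 0.0579 and 0 in egg and 0.226, 0.522 and 0.346 at 32-cell. It scored 0.622, 0.528 and 0.138 at 12-somite, 0.779, 0.757 and 0.663 at protruding-mouth, and 0.898 and 0.904 in adult tail. The 3 egg libraries lay below all 11 others and the 2 adult tail libraries above all 12 others, with the protruding-mouth libraries above those of 12-somite. The 3 egg libraries held 3216, 2409 and 2909 read ends at the site itself, against flanking means of 3154, 2626 and 2588, so read ends at the site were about as frequent as around it. In adult tail A and B there were 50 and 173 ends at the site against flanking means of 523.1 and 1819. The base before it is C in the early and A in the late rRNA (C3196A), and this change goes with the change of reference between 12-somite and protruding-mouth. Within the 3 stages mapped to the early rRNA the means were 0.0193 ± 0.0335, 0.364 ± 0.149 and 0.429 ± 0.257 (n = 3 each), and within those mapped to the late rRNA 0.733 ± 0.0616 (n = 3) and 0.901 ± 0.00446 (n = 2).

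28S-Am4560 (positions 3860 and 3709), guided in human by SNORD119, scored 0.0906, 0.351 and 0.293 in egg and 0.743, 0 and 0.439 at 32-cell. It scored 0.641, 0.451 and 0.877 at 12-somite, 0.556, 0.382 and 0.869 at protruding-mouth, and 0.866 and 0.927 in adult tail. The egg mean was 0.245 ± 0.137 (n = 3) and the adult tail mean 0.896 ± 0.0433 (n = 2), with no overlap. The 32-cell mean of 0.394 was 0.591 without library 2 and 0.220 without library 1. The 32-cell libraries overlapped with egg and not with adult tail, and those of 12-somite and protruding-mouth overlapped with adult tail and not with egg.

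The 2 sites of 5.8S rRNA had their lowest means in protruding-mouth larvae. The 5' part of 5.8S rRNA, where both lie, pairs with 28S rRNA in the ribosome. 5.8S-Um8 scored 0.830, 0.617 and 0.880 in egg, 0.861, 0.877 and 0.859 at 32-cell and 0.904, 0.851 and 0.568 at 12-somite. At protruding-mouth it scored 0.480, 0.388 and 0.791, a mean of 0.553 ± 0.211 (n = 3), and in adult tail 0.974 and 0.978. Protruding-mouth library 3 lay inside the range of egg and 12-somite. 5.8S-Um14, guided in human by SNORD71, scored 0.727, 0.674 and 0.537 in egg, 0.734, 0.817 and 0.770 at 32-cell and 0.552, 0.7502 and 0.814 at 12-somite. It scored 0.416, 0.621 and 0.695 at protruding-mouth, a mean of 0.577 ± 0.145 (n = 3), and 0.954 and 0.955 in adult tail. At both sites the adult tail libraries lay above all 12 others. The third listed site of 5.8S rRNA, Gm75, had stage means from 0.885 to 0.939.

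A further 4 sites, 18S-Cm346, 28S-Um3904, 28S-Gm3923 and 28S-Gm2817, had their lowest mean at a middle stage and their highest in adult tail, as did 18S-Um354 and both 5.8S sites above. 18S-Cm346 (positions 392 and 356) scored 0.893, 0.793 and 0.844 in egg and 0.713, 0.476 and 0.251 at 32-cell. It scored 0.789, 0.546 and 0.550 at 12-somite, 0.666, 0.632 and 0.458 at protruding-mouth, and 0.924 and 0.919 in adult tail. All libraries of the 3 middle stages lay below the 3 egg libraries, and these lay below both adult tail libraries.

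28S-Um3904 (positions 3185 and 3073), guided in human by SNORD52, scored 0.581, 0.933 and 0.980 in egg, 0.859, 0.404 and 0.919 at 32-cell and 0.848, 0.377 and 0.470 at 12-somite. It scored 0.970, 0.463 and 0.501 at protruding-mouth and 0.919 and 0.904 in adult tail. Each of the 4 stages with 3 libraries held libraries on both sides of 0.75. The SD within these stages was 0.218 to 0.282, against a range of the 5 stage means of 0.346, and every pair of stages overlapped except 12-somite and adult tail. Without library 2 the 32-cell mean of 0.727 was 0.889.

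28S-Gm3923 (positions 3204 and 3092), guided in human by SNORD111, scored 0.854, 0.637 and 0.822 in egg, 0.720, 0.489 and 0.397 at 32-cell and 0.597, 0.876 and 0.445 at 12-somite. It scored 0.764, 0.912 and 0.252 at protruding-mouth and 0.981 and 0.790 in adult tail. Every pair of its stages overlapped except 32-cell and adult tail. Without library 3 the protruding-mouth mean of 0.643 was 0.838.

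28S-Gm2817 (positions 2265 and 2249) had the smallest spread within stages among the 15 sites, a pooled SD of 0.0414. It scored 0.781, 0.808 and 0.742 in egg, 0.663, 0.760 and 0.661 at 32-cell and 0.722, 0.697 and 0.784 at 12-somite. It scored 0.812, 0.842 and 0.771 at protruding-mouth and 0.976 and 0.949 in adult tail. Both adult tail libraries lay above all 12 others.

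18S-Cm462 and 28S-Um4272 had their highest mean in egg. 18S-Cm462 (positions 508 and 472) is guided in yeast and human by U14, a snoRNA that is also needed for the processing of 18S rRNA. It scored 0.884, 0.851 and 0.947 in egg, 0.872, 0.506 and 0.678 at 32-cell and 0.917, 0.0868 and 0.861 at 12-somite. It scored 0.957, 0.709 and 0.966 at protruding-mouth and 0.694 and 0.940 in adult tail. A single library, 12-somite 2, put the 12-somite mean at 0.622 ± 0.464 (n = 3), and without it the mean was 0.889. Without 32-cell library 2 the 32-cell mean of 0.685 was 0.775, which leaves no stage of this site below 0.75 once both are set aside. 28S-Um4272 (positions 3570 and 3420) scored 0.707, 0.926 and 0.916 in egg, 0.528, 0.426 and 0.855 at 32-cell and 0.679, 0.497 and 0.778 at 12-somite. It scored 0.855, 0.595 and 0.715 at protruding-mouth and 0.721 and 0.553 in adult tail, and its stages overlapped with each other.

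Below 0.75 in adult tail alone were 18S-Am1678 and 28S-Cm3820, guided in human by SNORD82 and SNORD74. 18S-Am1678 (positions 1743 and 1697) scored 0.940, 0.929 and 0.904 in egg and 0.661 and 0.675 in adult tail. Between them it scored 0.901, 0.591 and 0.920 at 32-cell, 0.857, 0.928 and 0.845 at 12-somite and 0.782, 0.903 and 0.773 at protruding-mouth. 28S-Cm3820 (positions 3101 and 2989) scored 0.923, 0.798 and 0.933 in egg and 0.669 and 0.754 in adult tail. Its other 9 libraries lay between 0.844 and 0.984. At both sites the adult tail libraries lay below all egg and protruding-mouth libraries. Without adult tail A, 28S-Cm3820 had an adult tail value of 0.754, so 1 library decides its place in the set.

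**Figure D2:**
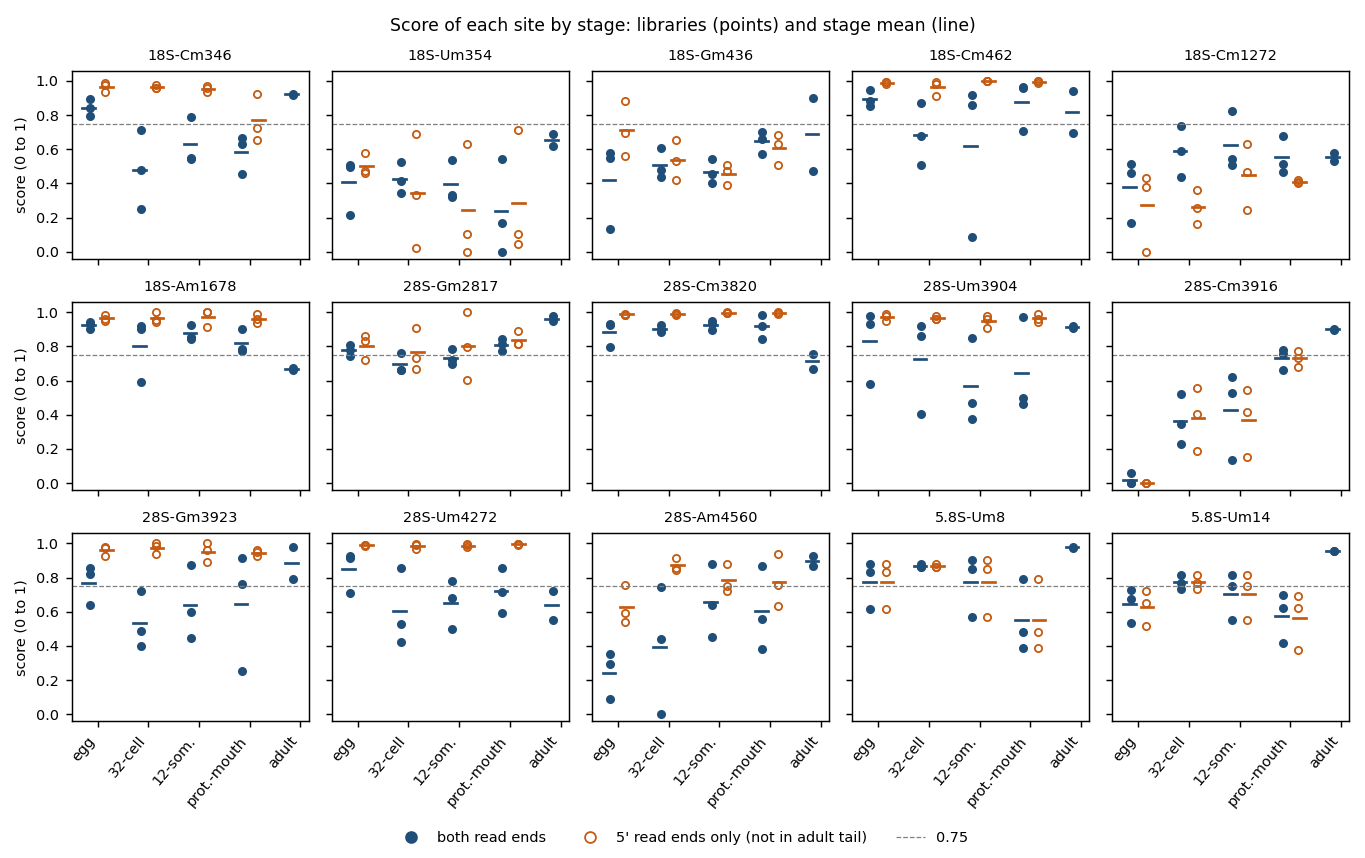
Score (vertical axis, 0 to 1) of each of the 15 sites by stage (horizontal axis), from both read ends (filled blue) and from 5' read ends alone (open orange, 4 stages). Points are libraries, short lines stage means and the dashed line 0.75. At 18S-Cm346, 18S-Cm462, 28S-Um3904, 28S-Gm3923 and 28S-Um4272 the open points sit high where the filled ones scatter. At 28S-Cm3916 both means are lowest in egg and, of these 4 stages, highest at protruding-mouth.

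Between egg and adult tail the libraries of the 2 stages did not overlap at 10 of the 15 sites, 8 higher and 2 lower in adult tail. Over all 98 listed sites this was the case at 32.7%. Between egg and 32-cell it was the case at 3 sites (2 higher, 1 lower at 32-cell), against 14.3% of the 98. The 12-somite libraries overlapped with those of 32-cell at all 15 sites, against 7.14% of the 98 without overlap. Those of protruding-mouth lay above 12-somite at 2 sites, 18S-Gm436 and 28S-Cm3916, against 7.14% in either direction. Adult tail did not overlap with protruding-mouth at 8 sites, 6 higher and 2 lower, against 33.7%. The stage means chose the 15 sites, and a stage with 2 libraries separates more easily than one with 3, so nothing is read from these shares.

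The score uses both ends of each read, and the 2 kinds of end can disagree at a site. Scores from 5' ends alone were computed with the same formula for the 12 libraries of the 4 stages from egg to protruding-mouth. In these stages 40 stage means of the 15 sites were below 0.75 with both ends. With 5' ends alone 19 of the 40 were at or above 0.75 and 21 were still below. Of the 13 sites that were below 0.75 at 1 or more of these 4 stages, 6 reached 0.75 at all 4 with 5' ends alone: 18S-Cm346, 18S-Cm462, 28S-Gm2817, 28S-Um3904, 28S-Gm3923 and 28S-Um4272. The other 7 stayed below it at 1 or more stages: 18S-Um354, 18S-Gm436, 18S-Cm1272, 28S-Cm3916, 28S-Am4560, 5.8S-Um8 and 5.8S-Um14. Around both 5.8S sites nearly all ends are 5' ends, so there the 2 readings could hardly differ and their staying below says nothing more. 18S-Am1678 and 28S-Cm3820, below 0.75 in adult tail alone, had 5' means of 0.962 to 0.971 and 0.986 to 0.995 at these 4 stages. No 5' score was computed for adult tail, so their low values there rest on both ends only. Around 18S-Am1678 few ends were 5' ends, a median of 5.99% over the 12 libraries. Its 5' score of 1 in 12-somite library 2 came from 0 ends at the site and a flanking mean of 12.6. These counts allow a score as low as 0.765. None of the other 83 sites (0) had a mean below 0.75 with 5' ends alone.

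At 9 of the 15 sites the mean from 5' ends alone was above that from both ends by more than 0.1 at 1 or more stages. This held for 17.3% of the 98 sites, 8 of them among the other 83. The 15 sites were chosen by low values from both ends, so a higher second reading at them is a description and no evidence of its own. The largest difference at a stage was 0.484, at 18S-Cm346 at 32-cell, followed by 0.477 at 28S-Am4560 and 0.439 at 28S-Gm3923, both at 32-cell too. At 18S-Cm1272 the mean from 5' ends was below that from both ends at each of the 4 stages.

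**Figure D3:**
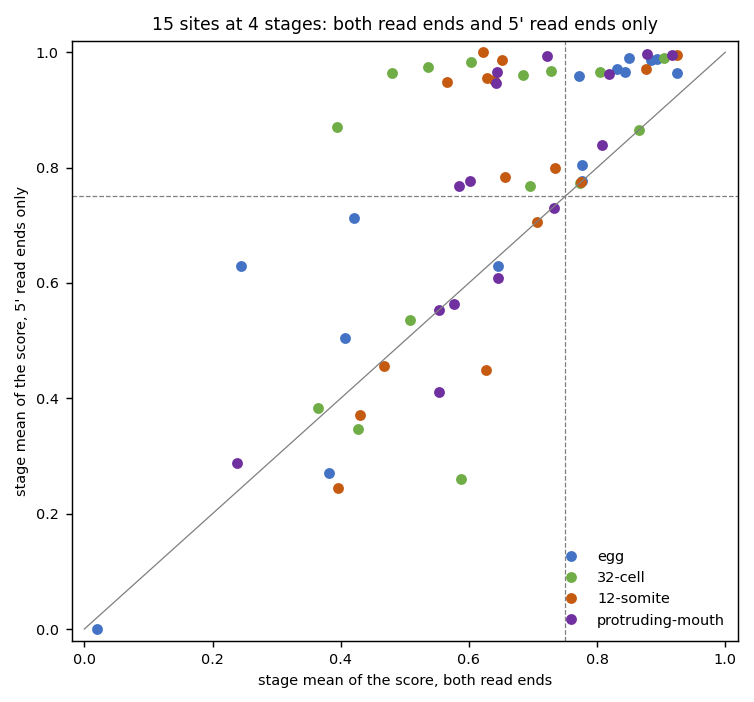
Stage means of the score of the 15 sites at 4 stages, from 5' read ends alone (vertical axis) against both read ends (horizontal axis), each 0 to 1. The solid line marks equal values and the dashed lines 0.75; the 19 points in the upper left are below 0.75 with both ends and at or above it with 5' ends alone.

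28S-Um4272 had values of 0.967 to 0.997 from 5' ends alone over the 12 libraries, while those from both ends ran from 0.426 to 0.926. At 32-cell its 3 libraries held 3, 7 and 24 5' ends at the site, against 5' flanking means of 582.5, 699.7 and 745.3. The same libraries held 1475, 1736 and 333 3' ends at the site. 28S-Um3904 was similar, with 0.906 to 0.991 from 5' ends alone. In 12-somite libraries 1, 2 and 3 it had 59, 49 and 5 5' ends and 183, 2376 and 600 3' ends at the site. The libraries with many 3' ends at the site are those with a low score. This follows largely from the formula, since most ends at the site are 3' ends in these libraries.

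18S-Cm346 scored 0.935 to 0.990 with 5' ends alone in the 9 libraries of egg, 32-cell and 12-somite. At protruding-mouth it scored 0.723, 0.926 and 0.657, and the mean of 0.769 ± 0.1403 (n = 3) was just above 0.75. 28S-Gm3923 scored 0.892 to 1 in the 12 libraries. In 12-somite library 3 its score of 1 came from 0 ends at the site and a flanking mean of 4.17, counts that allow a score as low as 0.194. 28S-Gm2817 lay close to the limit with either reading: its stage means from 5' ends were 0.805, 0.768, 0.8001 and 0.840, and 4 of the 12 libraries were below 0.75. Its 12-somite libraries scored 0.606, 0.794 and 1. The score of 1, in library 3, came from 0 ends at the site and a flanking mean of 10, counts that allow a score as low as 0.630. Without that library 8 sites instead of 7 stayed below 0.75 at a stage with 5' ends alone.

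18S-Cm462 scored 0.913 to 1 with 5' ends alone, but few 5' ends fall in its surroundings. In 12-somite library 2 the flanking positions held 12.3 5' ends on average and the site 0, against 2279 3' ends on average and 2167 at the site. A count of 0 allows up to 3 ends, which gives a score of at least 0.733 there. In 12-somite library 3 the flanking mean was 0.833 5' ends, so that the 5' score of 1 says nothing, and in protruding-mouth library 3 it was 7. Under 10 5' ends on average were also found at 28S-Cm3916 (6.58) and 28S-Gm3923 (4.17) in 12-somite library 3. These are 4 of the 180 values from 5' ends.

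**Figure D4:**
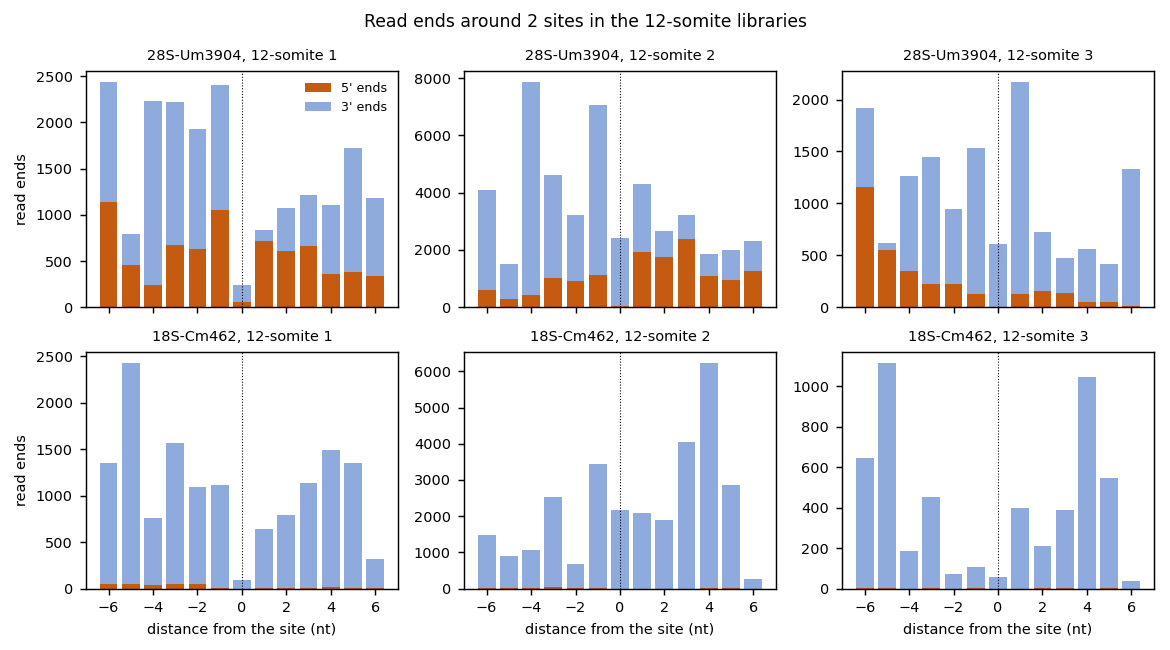
Number of 5' (orange) and 3' (blue) read ends, stacked, at the 6 positions on each side of 28S-Um3904 and 18S-Cm462 (distance 0) in the 3 libraries of 12-somite. Axes differ between panels; at distance 0 there are more 3' than 5' ends in every panel, and 12-somite 2 has 2376 of them at 28S-Um3904 and 2167 at 18S-Cm462.

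The 7 sites that stayed low with 5' ends did so with lower, similar or higher values than from both ends. 28S-Cm3916 scored 0 in all 3 egg libraries with 5' ends alone, then 0.383 ± 0.183 at 32-cell, 0.371 ± 0.201 at 12-somite and 0.730 ± 0.0461 at protruding-mouth (n = 3 each). Egg was lowest and protruding-mouth highest of the 4 stages with both readings, while 32-cell and 12-somite changed order. 18S-Cm1272 was lower with 5' ends, from 0.2604 ± 0.0995 at 32-cell to 0.449 ± 0.193 at 12-somite (n = 3 each). 18S-Um354 had means of 0.505, 0.347, 0.245 and 0.288 from egg to protruding-mouth, with libraries from 0 to 0.713. 18S-Gm436 had means of 0.713, 0.536, 0.457 and 0.609, of which that of egg was above its 0.421 from both ends. 28S-Am4560 was higher with 5' ends alone, 0.630 ± 0.112 (n = 3) against 0.245 in egg and 0.776 to 0.871 at the other 3 stages, so that only egg was below 0.75.

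The 5.8S sites rest on 5' ends by their place in the molecule. No 3' end was counted within 6 positions of 5.8S-Um8, and at least 92.7% of the ends around 5.8S-Um14 were 5' ends. Around the 13 other sites the median share of 5' ends over the 12 libraries ran from 3.97% at 18S-Cm462 to 75.1% at 18S-Gm436.

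Some low values recurred in libraries of different stages with the same barcode, and the sites named first here were picked for this recurrence. 18S-Cm462 was lowest of its stage in the library with barcode GTAGTG at 12-somite (0.0868), protruding-mouth (0.709) and adult tail (0.694). 28S-Gm3923 was lowest of its stage in the library with barcode TACTGT at 12-somite (0.445), protruding-mouth (0.252) and adult tail (0.790). 28S-Um3904 was lowest in the library with barcode AGCTTG in egg (0.581) and at 32-cell (0.404), and low with GTAGTG and TACTGT at 12-somite (0.377 and 0.470) and protruding-mouth (0.463 and 0.501). In adult tail, which has the last pair of barcodes, it scored 0.919 and 0.904. 28S-Am4560 was lowest of its stage with AGCTTG in egg (0.0906) and at 32-cell (0). With GTAGTG it was lowest at 12-somite (0.451), protruding-mouth (0.382) and adult tail (0.866). 28S-Um4272 was lowest with AGCTTG in egg (0.707) and at 32-cell (0.426), and with GTAGTG at 12-somite (0.497) and protruding-mouth (0.595). In adult tail 28S-Um4272 was lower with TACTGT (0.553). At other sites of the set the barcode of the lowest library changed between some stages, and at several of them it was kept between others. 18S-Um354 was lowest with GTAGTG at 12-somite (0.319) and with CTAACT at protruding-mouth (0). 5.8S-Um8 was lowest with TACTGT at 12-somite (0.568) and with GTAGTG at protruding-mouth (0.388). It was lowest with CGCAAT both in egg (0.617) and at 32-cell (0.859), as was 18S-Cm346 (0.793 and 0.251). 28S-Cm3916 was lowest with TACTGT at 12-somite (0.138) and at protruding-mouth (0.663). How often the lowest library kept its barcode was not counted over the set or over all listed sites. The part of the barcode in these values was not tested.

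The 6 letters of barcode AGCTTG, read with U as AGCUUG in the sense of the rRNA, occur at 2 places in the early and at the same 2 in the late rRNA. One lies 8 to 3 nt before 28S-Um3904 and can be read in its window above, and the other 14 to 9 nt before 18S-Am1678. Both sites had their lowest 32-cell score in the library with this barcode, 0.404 and 0.591. 28S-Um3904 also had its lowest egg score with it, whereas 18S-Am1678 scored 0.940 in the egg library with it, the highest of the 3. That 32-cell library was also the lowest of its stage at sites without these letters nearby. They were 18S-Um354 (0.342), 18S-Gm436 (0.436), 18S-Cm462 (0.506), 28S-Um4272 (0.426) and 28S-Am4560 (0). Its median over the 15 sites, 0.506, was the lowest of the 14 libraries. The letters of the other 6 barcodes occur at most once in either rRNA and not within 10 nt after or 15 nt before one of the 15 sites. A match of letters is a description and was found after the values were seen.

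The authors' deposited table gives corrected means at 6 of the 15 sites, against 5 of the other 83. 18S-Cm462 was corrected at all 5 stages, with means from 0.926 to 0.974, and 28S-Um3904 at 4 stages, with means from 0.759 to 0.964. With these means both were above 0.75 at every stage. 28S-Gm3923 had corrected means of 0.930 at protruding-mouth and 0.960 in adult tail, 18S-Am1678 of 0.940 at 32-cell and 18S-Um354 of 0.493 in egg. 13 of the 15 sites stayed below 0.75 at 1 or more stages in the authors' deposited table. No mean of 28S-Um4272, 18S-Cm346 or 28S-Cm3820 differed from the uncorrected one there.

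How far below full methylation a score reads was set against the rRNA positions that are not listed. At these 6018 to 6234 positions a stage the median score was 0.0931 to 0.185 and the 95th percentile 0.5002 to 0.619. At or below that percentile were 5 of the 15 sites in egg and 0 in adult tail, with 6 at 32-cell, 4 at 12-somite and 1 in protruding-mouth larvae. In egg these were 18S-Um354, 18S-Gm436, 18S-Cm1272, 28S-Cm3916 and 28S-Am4560. A score in this range does not by itself set a site apart from an unlisted position. With 5' ends alone the unlisted positions reached higher, a 95th percentile of 0.660 to 0.777, and 2.55% to 6.28% of them scored at least 0.75. At or below that percentile were then 5 of the 15 sites in egg, 4 at 32-cell, 6 at 12-somite and 5 in protruding-mouth larvae.

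**Figure D5:**
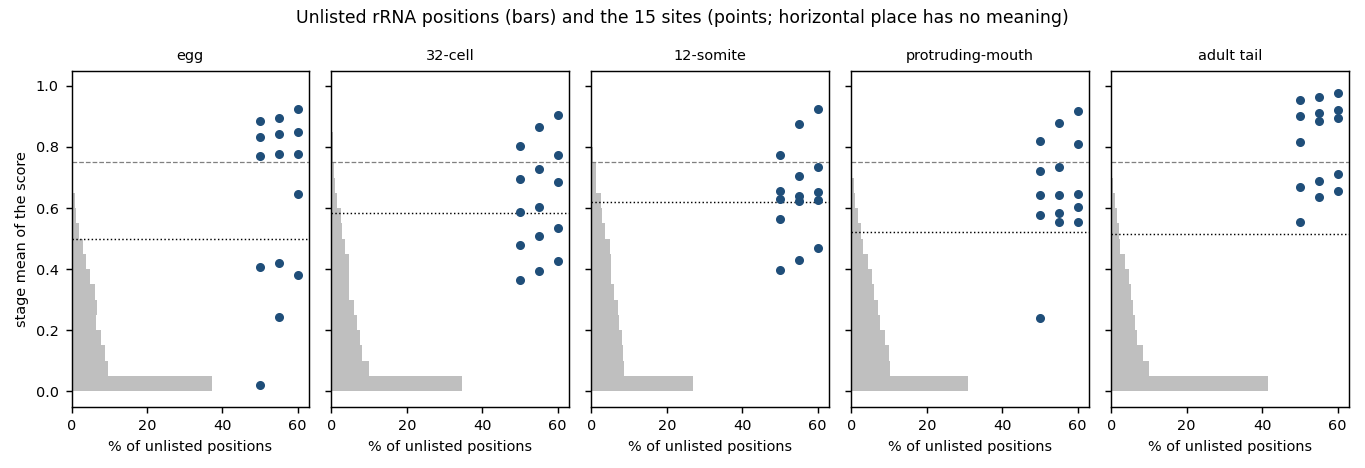
Stage means of the score (vertical axis, both read ends) at unlisted rRNA positions, as grey bars giving the percentage of positions in steps of 0.05 (horizontal axis), and at the 15 sites (blue points). The dotted line is the 95th percentile of the unlisted positions, from 0.5002 in egg to 0.619 at 12-somite, and the dashed line 0.75: in adult tail all 15 points lie above the dotted line.

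By nucleotide the 15 sites are 5 C, 5 U, 3 G and 2 A, against 14 C, 17 U, 25 G and 27 A among the other 83. Another listed site lay within 12 positions of 12 of the 15 and of 49 of the 83. Where a neighbour lies within 6 positions it is part of the weighted mean. Of these neighbours 18S-Am468 had stage means from 0.814 to 0.924 and 28S-Um4276 from 0.901 to 0.975. With listed sites left out of the flanks 28S-Um4272 had a mean of 0.644 at 32-cell instead of 0.603, and all 15 sites stayed in the set. The spread within stages, as a pooled SD over libraries, had a median of 0.149 over the 15 sites and of 0.0326 over the other 83. The lowest flanking mean of a site had a median of 172.8 read ends over the 15 sites and of 225.9 over the other 83.

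The sites nearest the limit inside it, by lowest stage mean, were 28S-Cm3820 with 0.712, 28S-Gm2817 with 0.695 and 18S-Am1678 with 0.668. Just outside it were 28S-Um4590 with 0.783 at 32-cell, 18S-Am1637 with 0.787 and 28S-Am1511 with 0.795 in adult tail, and 28S-Am3697 with 0.799 at 12-somite.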

How the data were processed

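RiboMeth-seq libraries of 14 zebrafish samples in 5 groups (egg, 32-cell, 12-somite, protruding-mouth, adult tail) were used. The series also holds 4 small RNA samples, not used here. Per the labels' protocols, alkali-treated RNA of 20 to 40 nt was made into libraries and read on the Ion Proton platform. The submitters' processing notes name cutadapt 2.0 and Bowtie2 2.3.4.1. The early or the late rRNA served as reference, per the file headers. The deposited sheets give the count of 5' ends, of 3' ends and of both at each rRNA position, raw. The deposited RiboMeth-seq value is a fraction from 0 to 1. The overview holds the authors' mean score per stage. Its header marks some of these as barcode corrected.

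Scores were 1 minus the ends at a site over the mean of the left and right weighted means of 6 positions (weights from 1 to 0.5 in steps of 0.1), with values below 0 set to 0. Computed this way they differed from the deposited fraction by at most 4.97e-13 in the 12 libraries of 4 stages, and the adult tail scores were computed from the counts. The numbers over the adult columns do not match the sample titles, so these columns were used as columns of the stage. Of them only the counts of both ends were taken, and the adult counts of 5' and of 3' ends were left unused. In all, 34 columns with values of single libraries were not used, including these adult counts. Every listed site had a flanking mean of at least 10 read ends (lowest 32.25). Counting error follows from the ends at a site and its flanks, which range over libraries with totals of 1494730 to 15358081; reads are not independent molecules.

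The score was tested on simulated read ends with an even background in which only the site was lowered. Uneven flanks, as found in these libraries, were not simulated, so this checked the arithmetic of the score only. Biopython 1.88 aligned the early to the late rRNA. The other tools were Python 3.11.15 with pandas 2.3.3, numpy 2.4.6 and matplotlib 3.10.9. The 15 sites, the groups of sites and the listings were chosen with earlier results of these data known. Named were all members, listed sites with a lowest stage mean from 0.75 to 0.8 or a 5' stage mean below 0.75, and listed sites within 6 positions of a member; 5.8S-Gm75 was added after its values were seen. Alternatives were a limit of 0.7 or 0.8, medians, 2 unweighted flanking positions, scores not limited at 0, at least 50 read ends in the flanks, 5' ends alone, the authors' means and leaving out each library. Leaving listed sites out of the flanks, at least 10 5' ends in the flanks, and leaving out libraries for the overlap of egg and adult tail were chosen after seeing the data.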

Additional observations from a re-analysis of the deposited data

How the results depend on the processing

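With 5' ends alone, 7 sites were below 0.75 at 1 or more of 4 stages, against 13 with both ends in the same stages. By stage 4 sites were below with 5' ends alone at 32-cell, 5 at 12-somite and 6 at protruding-mouth, against 11, 12 and 11, and 6 in egg with either. Every other alternative kept each count within 1.5 times its value. The set held 14 sites at a limit of 0.7 and 19 at 0.8. It gained 28S-Um4590 with 2 unweighted flanking positions and lost 18S-Cm462 and 28S-Um3904 with the authors' means. Leaving out 1 library gave 15 or 16 sites. It gave 10 to 14 sites at which egg and adult tail did not overlap, 7 to 8 or 7 to 9 in the counts from 5' ends. By stage it gave 6 to 9 sites below 0.75 in egg, 10 to 13 at 32-cell, 11 to 12 at 12-somite, 9 to 11 at protruding-mouth and 6 to 7 in adult tail. Of 210 stage means with 1 library left out, 19 lay on the other side of 0.75, at 12 of the 15 sites. Of the 75 stage means, 63 moved by less than 1 SD with 2 flanking positions and 73 with the authors' means. Of 60, 29 did so with 5' ends alone, while 27 were higher and 4 lower. Adult tail has 2 libraries, 1 of them shallow. Few 5' ends limit the 5' scores at 18S-Cm462 and 18S-Am1678, and that of 28S-Gm3923 in 12-somite library 3. No stage difference was tested, so no paired fit was made.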
